A study of Homo sapiens with 26 samples.

Results

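Chromosome 14 was described from the end nearest its centromere to its telomere, in 26 single cells, as the set of its 100 kb bins (hg19) that carried signal in at least 1 cell. These were 877 of the 26331 bins used over the whole genome, and they ran from 19000001 to 107300000. Of the 1074 bins listed for the chromosome, 193 had no value and 4 were 0 in every cell. The first used bin lies on the long arm, so the short arm of this acrocentric chromosome is not described.

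The cells were KBM7, a human chronic myeloid leukaemia line with a nearly haploid genome. All came from clone 5-8, were labelled 1N and carried Dam alone, not fused to another protein. Methylation was induced for 15 h with 0.5 nM Shield1, a ligand that stabilises the tagged enzyme, and single cells were sorted from the smallest 2% among those expressing both Fucci reporters of the cell cycle. The series title names lamin B1, while every sample label and the design text name Dam alone; here the cells are taken as Dam-only cells. Of the 124 cells that the design text counts, 26 were analysed. They form 1 group from 1 clone, with no second condition and no replicate culture, so no test was made: SDs are spreads between cells, given with how many cells lay above or below a level.

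Dam is a bacterial adenine methyltransferase that marks GATC sequences. Freely diffusing Dam reaches open chromatin more readily than compacted chromatin, and DpnI then cuts only at marked sites. In many cell types chromosomes alternate between gene-rich domains of open chromatin in the nuclear interior and gene-poor domains, often called gene deserts, that are compact and tend to lie at the nuclear lamina. Chromosome 14 is known for both: it holds the T cell receptor alpha and delta locus near its centromere, the immunoglobulin heavy chain locus at its telomere, and long gene deserts in between.

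Both values and sequence can be set side by side for a pair of genes at the extremes of the landmark loci described further on. Shown are the 250 bases before the start of NFKBIA, whose 1 Mb window had the highest mean of the landmarks over all 26 cells, and of MDGA2 at the outermost of its 2 listed starts, whose windows had the lowest. The pair was chosen after these values were seen. The sequences are those of RefSeq on GRCh38.p14, both genes on the minus strand, written 5′ to 3′ with GATC, the sequence Dam marks, in capitals.
NFKBIA: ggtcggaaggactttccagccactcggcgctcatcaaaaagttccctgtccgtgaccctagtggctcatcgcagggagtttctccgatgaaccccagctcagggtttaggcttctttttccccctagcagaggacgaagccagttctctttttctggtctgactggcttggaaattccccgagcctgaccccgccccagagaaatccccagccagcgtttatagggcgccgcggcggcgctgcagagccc
MDGA2: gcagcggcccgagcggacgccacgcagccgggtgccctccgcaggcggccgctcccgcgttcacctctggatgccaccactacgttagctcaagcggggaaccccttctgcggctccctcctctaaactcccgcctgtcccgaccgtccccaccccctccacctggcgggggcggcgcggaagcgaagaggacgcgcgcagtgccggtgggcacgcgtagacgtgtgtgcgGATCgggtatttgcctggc
The NFKBIA stretch held 0 GATC sequences and the MDGA2 stretch held 1. GATC, which reads the same on both strands, was found in 35.8% of 35116 RefSeq promoter stretches of this length and in 37.8% of the 1158 on chromosome 14. A 100 kb bin is far longer than a promoter, so the bin values say nothing about these stretches themselves.

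Values were deposited as ratios of observed over expected signal per bin and cell. Each was divided by the mean over all used bins of the same cell, and the result is called the relative ratio, with 1 as the level of an average bin. Whole counts behind the ratios were recovered. They totalled 20182 to 178941 per cell, and on chromosome 14 they ran from 582 in cell 21 to 6046 in cell 1, with a median of 1514.5. At 0.664 to 6.89 counts per bin, counting error is large for 1 bin of 1 cell, so values were averaged over bands, windows or cells. Cells 10 and 22 stood apart on this chromosome and are described below; results that rest on them are also given without them.

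As a whole, chromosome 14 was near the level of the other autosomes. Its mean ratio over theirs was 0.982 ± 0.198 (SD, n = 26), with a lowest cell of 0.730 (cell 26), a median of 0.953 and a highest of 1.77 (cell 10), and 7 cells were above 1. The next highest cell was cell 7 at 1.25. Without cell 10 the level was 0.950 ± 0.119. This average concealed large differences between bands.

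**Figure D1:**
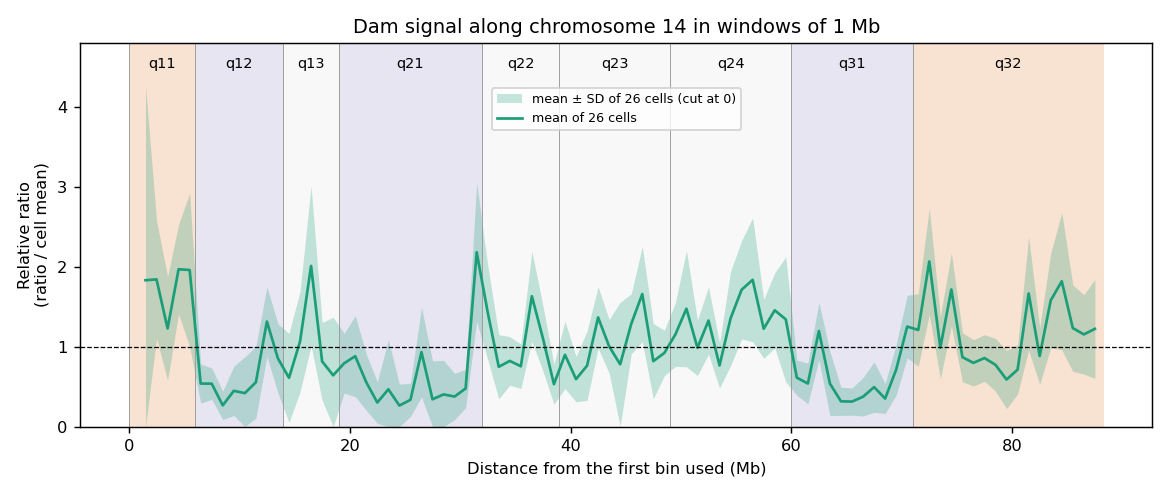
Mean relative ratio (ratio over cell mean) of 26 cells in windows of 1 Mb, plotted against the distance in Mb from the first used bin; the green area is ± 1 SD between cells, orange marks bands 14q11 and 14q32 and violet marks bands 14q12, 14q21 and 14q31. The violet stretches lie mostly below 1, with short peaks inside them, and the highest window (2.18) is the last of 14q21.

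Bands were taken with edges rounded to whole megabases. The band nearest the centromere, 14q11 (19000001 to 25000000, 54 bins), was the highest of the 9. It holds a cluster of olfactory receptor genes, the ribonuclease A family, the T cell receptor alpha and delta locus and the cardiac myosin genes among many broadly expressed genes. Its relative ratio was lowest at 1.22 in cell 23, had a median of 1.60 and reached 3.99 in cell 7, for a mean of 1.78 ± 0.707. All 26 cells were above 1. Summed over cells, 4717 counts gave 1.73 times the genome-wide value per unit of expectation (exact 95% Poisson interval 1.68 to 1.78, which covers counting error only). The value in cell 7 owed much to the bin from 20000001 to 20100000, which stood at 109.7 in that cell and had 2 counts in all cells together, on an expectation of 0.00633 times the median bin. Leaving out the 8 of its 54 bins with an expectation below 0.5 times that of the median bin, the band averaged 1.69 ± 0.548.

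The next band, 14q12 (25000001 to 33000000, 80 bins), was among the lowest. Its relative ratio ran from 0.408 in cell 2 over a median of 0.590 to 1.08 in cell 22, with a mean of 0.617 ± 0.158, and 25 of 26 cells were at or below 1. The low part was the stretch from 25000001 to 31000000, at 0.461 ± 0.154 and below 1 in all 26 cells; it holds NOVA1, a neuronal splicing factor. The remaining part from 31000001 to 33000000 stood at 1.08 ± 0.263 and was higher than the first part in all 26 cells. These inner limits were chosen after the values were seen.

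Band 14q13 (33000001 to 38000000, 50 bins) lay near the genome mean, with a wide spread. Its mean was 1.03 ± 0.458, its lowest cell was at 0.406 (cell 23), its median at 0.967 and its highest at 2.66 (cell 22), and 10 cells were above 1. Without cell 22 it was 0.964 ± 0.321. With the band edges moved inward by 1 Mb it was 1.30 ± 0.478. Inside it the windows of 1 Mb went from 0.611 to 2.01, and the highest of them, from 35000001 to 36000000, is the one that holds NFKBIA, which encodes an inhibitor of NF-kappa-B.

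Band 14q21 (38000001 to 51000000, 130 bins) was low along most of its length. Its relative ratio ran from 0.432 in cell 26 over a median of 0.576 to 1.53 in cell 22, with a mean of 0.640 ± 0.225, or 0.604 ± 0.136 without cell 22. The last window of the band, from 50000001 to 51000000, was the highest window of the chromosome at 2.18 ± 0.868. Leaving it out, the band averaged 0.511 ± 0.253, and the last window was above this rest in 25 of 26 cells. The stretch from 40000001 to 45000000 averaged 0.384 ± 0.272, with a median of 0.331 and cell 22 at 1.60.

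Bands 14q22 and 14q23 were at the level of the genome. The first (51000001 to 58000000, 70 bins) averaged 1.00 ± 0.222, with cells from 0.386 (cell 22) over a median of 1.02 to 1.58 (cell 10), and 15 cells were above 1. The other (58000001 to 68000000, 100 bins) averaged 1.01 ± 0.221, with cells from 0.586 (cell 3) over a median of 1.02 to 1.55 (cell 22), and 15 cells were above 1 here too. Neither stood clearly on a side.

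Band 14q24 (68000001 to 79000000, 110 bins) was high. It holds the immediate early gene FOS. Its lowest cell was at 0.574 (cell 22), its median at 1.34 and its highest at 2.39 (cell 10), with a mean of 1.33 ± 0.328, and 24 cells were above 1. Summed counts gave 1.34 (1.31 to 1.37, 8924 counts).

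Band 14q31 (79000001 to 90000000, 110 bins) was again a desert. It contains NRXN3, a very long gene for a presynaptic adhesion protein, and FLRT2, which encodes a membrane protein of cell adhesion and guidance. Its cells ran from 0.276 (cell 26) over a median of 0.597 to 1.18 (cell 10), with a mean of 0.609 ± 0.160, and 25 of 26 cells were at or below 1. Without cell 10 the mean was 0.587 ± 0.112. The stretch from 82000001 to 88000000 averaged 0.398 ± 0.160 and was below 1 in all 26 cells.

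Band 14q32 (90000001 to 107300000, 173 bins), which reaches the telomere, was above the genome mean without being uniform. Its cells ran from 0.479 (cell 22) over a median of 1.17 to 2.13 (cell 10), with a mean of 1.19 ± 0.278, and 23 cells were above 1. Inside it, the stretch from 90000001 to 94000000 averaged 1.496 ± 0.394 and the stretch from 100000001 to the telomere 1.36 ± 0.375. Between them lay 6 Mb, from 94000001 to 100000000, at 0.767 ± 0.169, below both neighbours in all 26 cells. That middle part carries the SERPINA cluster of liver-secreted protease inhibitors, TCL1A and BCL11B, and its recovered expectation was 1.22 times the median bin against 1.00 and 0.885 in its neighbours; the part of the expectation in this difference was not tested.

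Placed in order, with the edges as taken here, the bands fell into 3 sets. The first was 14q11, then 14q24, then 14q32, so that 14q24 stood among the high bands although the description of the members names only the 2 ends of the long arm as high. Within cells 14q11 exceeded 14q24 in 22 of 26, at a log2 ratio of 0.39 ± 0.42, and 14q24 exceeded 14q32 in 23, at 0.16 ± 0.19, so the steps between these neighbours were no larger than the spread between cells. The bands 14q13, 14q23 and 14q22 formed the second set: 14q13 exceeded 14q23 in 10 cells and 14q22 in 9, and 14q22 exceeded 14q23 in 18. The deserts 14q21, 14q12 and 14q31 formed the third: 14q12 exceeded 14q21 in 12 cells and 14q31 in 13, and 14q21 exceeded 14q31 in 13. By contrast, 14q31 was below 14q24 and below 14q32 in all 26 cells, with a log2 ratio of 1.13 ± 0.34 for 14q24 over 14q31 and of -0.96 ± 0.33 for 14q31 over 14q32.

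**Figure D2:**
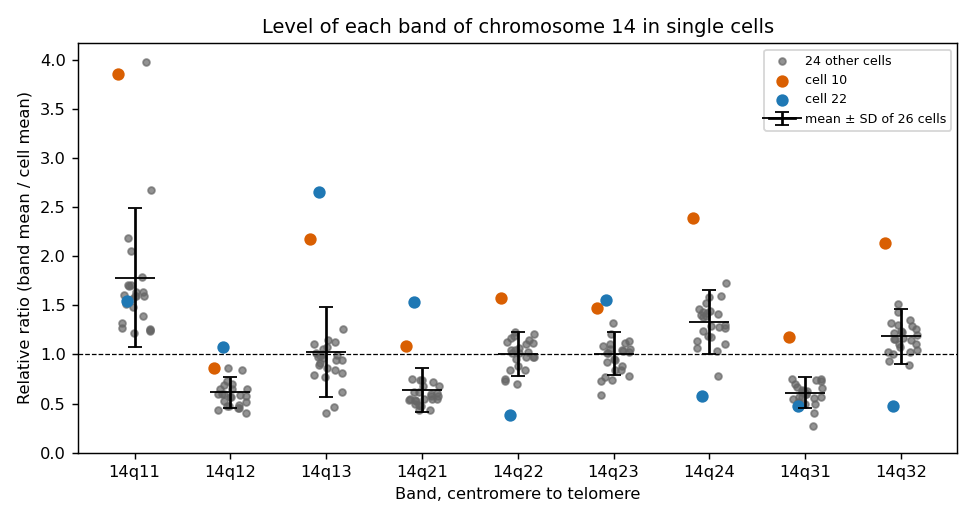
Relative ratio of each band (band mean over cell mean) in each of 26 cells, with cells 10 and 22 coloured; black bars are the mean ± SD. In 14q12, 14q21 and 14q31 nearly all grey points lie under 1, while in 14q11 all 26 cells lie above it.

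The contrast between high and desert bands was taken within each cell, as the log2 ratio of the mean over 14q11 and 14q32 to the mean over 14q12, 14q21 and 14q31. It averaged 1.09 ± 0.39, with a median of 1.14 and a highest cell of 1.67 (cell 8). The mean of the same ratios on the linear scale was 2.18 ± 0.450. It was above 0 in 25 of 26 cells. The exception was cell 22, at -0.52; the next lowest was cell 17 at 0.81. Without cell 22 it was 1.15 ± 0.21. Adding 14q24, which was as high as 14q32, to the high bands left it at 1.09 ± 0.40, and leaving out the last window of 14q21 gave 1.21 ± 0.42, both chosen after the values were seen.

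**Figure D3:**
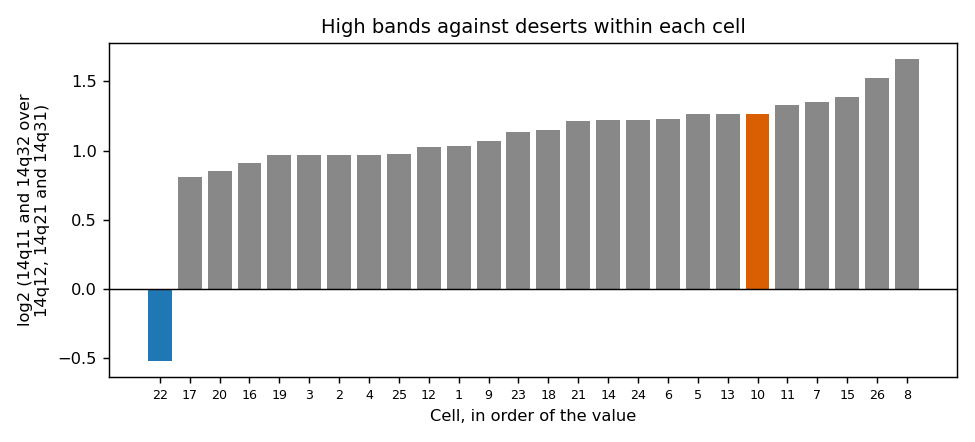
The log2 ratio of the high bands (14q11 and 14q32) over the desert bands (14q12, 14q21 and 14q31) in each of the 26 cells, in increasing order. Cell 22 (blue) is the only bar under 0, and cell 10 (orange) lies at 1.27, inside the range of the others.

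Cell 22 carried a different profile. Over the 1 Mb windows of chromosome 14, the Spearman correlation of a cell with the mean of the others was 0.790 ± 0.182 on average and 0.928 in cell 1, but -0.0356 in cell 22; the next lowest was cell 21 at 0.653. Windows are not independent, and all cells share 1 expectation per bin. In the 25 windows from 25000001 to 50000000, cell 22 averaged 1.65, against 0.393 to 1.08 in the other cells, and it was the highest of all cells in 16 of them and the lowest or tied for it in 5. In the other 62 windows it averaged 0.664, against 0.861 to 2.02, and was highest in 2 and lowest or tied in 23. Those 2 lie in 14q23, from 63000001 to 64000000 at 4.33 and from 66000001 to 67000000 at 2.90, and cell 22 was also the highest cell of that band. Cell 22 had 21105 counts in all and signal in 34.3% of used bins, the smallest share of any cell; the part of depth or amplification in its profile was not tested.

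Cell 10 was above the mean of the other cells in all 9 bands, and in 76 of the 87 windows against 11 below. Against the other autosomes of the same cell its bands stood between 1.44 times (14q12) and 2.30 times (14q11) the mean of the other cells, and it was the highest of all cells in 4 of the 9 bands. It was highest in 31 of the 87 windows. Its Spearman correlation with the mean of the other cells was 0.824, which was also the median over cells. It had 1491 counts on chromosome 14 of 25222 in all. Whether the cell carried more DNA of this chromosome or more signal per copy cannot be told apart here.

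The bands also varied from cell to cell in relation to each other. Across the 26 cells the levels of 14q11 and 14q32, each against the other autosomes, had a Pearson correlation of 0.575 and a Spearman correlation of 0.409. Without the 2 cells farthest from the median of 14q11 Pearson's value was 0.248. Without cell 10 Pearson's value was 0.268 and Spearman's 0.34, so the size of Pearson's value rested on few cells. The highest Pearson value was that of 14q13 and 14q21, at 0.887, which fell to 0.396 without the 2 cells farthest from the median of 14q13 and had a Spearman value of 0.493. Next came 14q24 and 14q32 at 0.872 (Spearman 0.734), and 0.762 without cell 10. The value of 14q22 and 14q32 was also 0.872 (Spearman 0.773), and 0.824 without cell 10. Without the 2 cells farthest from the median of 14q24 the former was 0.618. Without the 2 farthest from the median of 14q22 the latter was 0.695. Of the 36 pairs of bands 33 had a positive Pearson value, with a median of 0.407, and 26 without cell 10, with a median of 0.161. The median Spearman value was 0.387 with cell 10 and 0.321 without it. These are descriptions over cells of 1 clone that share each cell's depth.

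Next, the bins that were positive in most or in few cells were counted. Positive means here that the ratio of the bin reached at least 1 in that cell. On chromosome 14, 48 of 877 bins (5.47%) were positive in at least 80% of the cells, where 5.61% of all used bins were. Another 292 bins (33.3%) were positive in at most 20%, where 33.5% of all used bins were. For the chromosome as a whole both shares were near the background, so they do not set it apart, but they were unevenly spread over its bands. Of the 54 bins of 14q11, 11 (20.4%) were positive in at least 80% of cells, as were 13 of 173 (7.51%) in 14q32 and 9 of 110 (8.18%) in 14q24, but 0 of 80 in 14q12. The other deserts had 3 of 130 (2.31%) in 14q21 and 3 of 110 (2.73%) in 14q31. These shares were close to that of 14q22 (2.86%), with 14q23 at 4% and 14q13 at 6%. Positive in at most 20% of cells were 88 of 130 bins in 14q21 (67.7%), 66 of 110 in 14q31 (60%) and 45 of 80 in 14q12 (56.25%), against 7 of 110 (6.36%) in 14q24. These counts depend on depth and on the value that defines positive: with every cell thinned to 20000 counts, 183 bins of the chromosome were positive in at most 20% of cells, 60 of them in 14q21, 36 in 14q31 and 25 in 14q12. With positive set at 0.5 there were 67 on the whole chromosome, so the rest of the 292 reached at least 0.5 in more than 20% of cells. Without the 6 cells of lowest coverage 81 were positive in at least 80%. The shares over all used bins were taken at the main setting only, so these other counts cannot be set against the genome.

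**Figure D4:**
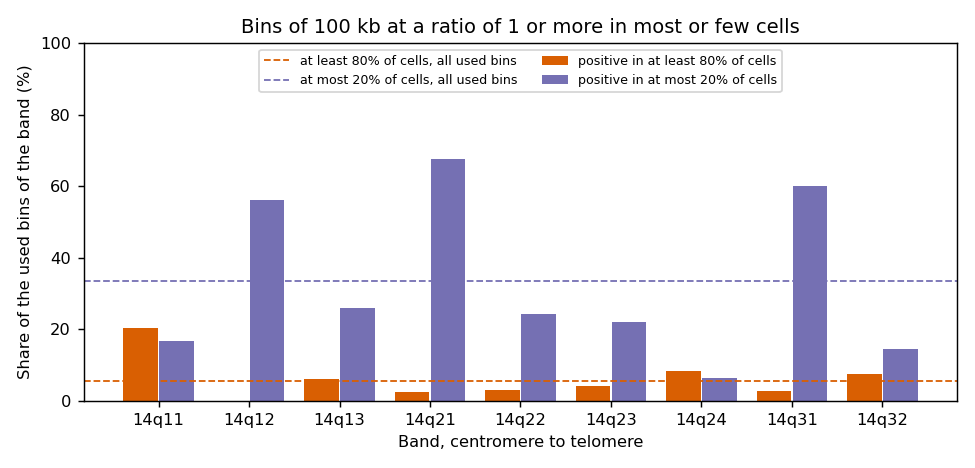
Share (%) of the used bins of each band that were positive in at least 80% of cells (orange) or in at most 20% (violet); dashed lines give the same shares over all 26331 used bins (5.61% and 33.5%). The violet bars exceed their line only in 14q12, 14q21 and 14q31.

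The longest run of bins positive in at least 80% of cells was 3 bins, and there were 2 such runs. The run from 20800001 to 21100000, in 14q11, averaged 3.02 ± 1.38 and was above 1 in 25 cells. The other, from 50300001 to 50600000, formed the core of the peak at the end of 14q21, at 3.11 ± 1.35 and above 1 in 24. Runs of bins that reached a ratio of 1 in at most 20% of cells were longer. The longest were 17 bins each, from 40900001 to 42600000 at 0.336 ± 0.334 and from 45900001 to 47600000 at 0.295 ± 0.371, both in 14q21 and both highest in cell 22, at 1.89 and 1.99. In 14q31 the run from 84500001 to 86000000 (15 bins) averaged 0.342 ± 0.184, and in 14q12 that from 27100001 to 28500000 (14 bins) averaged 0.292 ± 0.220.

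With adjacent high bins merged into 1 region, and among bins with an expectation of at least 0.5 times the median, the highest lay from 20900001 to 21000000 in 14q11. It averaged 4.34 ± 2.18 on 296 counts, had a median of 3.86 and was above 1 in 25 of 26 cells. The bin from 50300001 to 50400000 in 14q21 followed at 3.90 ± 3.00 and that from 91600001 to 91700000 in 14q32 at 3.78 ± 1.94. Without cell 10, which stood at 15.0 in the former, they averaged 3.46 ± 2.00 and 3.64 ± 1.85, which reverses their order. The pair of bins from 22900001 to 23100000 in 14q11 averaged 3.77 ± 2.41, and the higher of them stood at 3.86. Without cell 10, at 13.95 there, the pair averaged 3.37 ± 1.25. The regions were ranked with cell 10 included. Of the 10 highest regions 3 were in 14q11 and 2 in 14q32, with 1 each in 14q13, 14q21, 14q23, 14q24 and 14q31. The one in 14q31, from 81800001 to 81900000, stood at 3.27 ± 2.23 inside a desert band and was above 1 in 25 cells. The 10 lowest were all in deserts: 6 in 14q21, 3 in 14q31 and 1 in 14q12. The lowest, from 47300001 to 47400000 in 14q21, averaged 0.0373 ± 0.135 on 3 counts. Of the 877 used bins, 14q21 holds 130, 14q31 110, 14q12 80, 14q32 173 and 14q11 54. The band means rest on these same bins, so the places of the extreme bins are not independent of them.

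Windows of 1 Mb gave the same picture at lower noise. Of 87 windows with at least 7 used bins, 19 (21.8%) were above the cell mean in at least 21 cells, where 21.5% of all 2620 windows of the genome were, and 36 (41.4%) were below it, where 41.8% were. After the window at the end of 14q21, the highest were those from 91000001 to 92000000 at 2.07 ± 0.665 (above 1 in 25 cells), from 35000001 to 36000000 at 2.01 ± 1.00 (23 cells) and from 23000001 to 24000000 at 1.97 ± 0.561 (24 cells). The lowest was from 43000001 to 44000000 at 0.264 ± 0.269, followed by that from 27000001 to 28000000 at 0.266 ± 0.178, with no cell above 1. Of the 10 lowest windows 5 were in 14q21, 4 in 14q31 and 1 in 14q12. These bands hold 13, 11 and 8 of the 87 windows, in the same order.

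Some limits between high and low stretches fell between adjacent windows; those given here were chosen after the values were seen. At the end of 14q11 the relative ratio went from 1.96 ± 0.961 to 0.539 ± 0.245 in adjacent windows that meet at 25000000, with the left window higher in 25 of 26 cells. At the end of 14q21 it went from 0.478 ± 0.239 to 2.18 ± 0.868 where windows meet at 50000000, with the right window higher in 25. Within 14q32 it went from 0.713 ± 0.305 to 1.67 ± 0.710 at 100000000, again in 25 cells. The limit between 14q24 and 14q31, at 79000000, went from 1.34 ± 0.783 to 0.613 ± 0.219, with the left window higher in 23 cells.

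Known genes were placed on this profile by windows of whole megabases, from general knowledge of hg19; no annotation of that build was used, and a window holds many genes besides those named. Windows grouped here under genes of the nervous system were low. All 5 were at or below 1 in at least 21 cells, with means from 0.390 to 0.613. Of all 87 windows of the chromosome 41.4% were below 1 in as many cells, and these 5 were grouped with results known. MDGA2, an adhesion molecule of synapses, lies in windows that ran from 0.0679 over a median of 0.281 to 1.86 in cell 22, with a mean of 0.390 ± 0.330, or 0.331 ± 0.142 without cell 22. The windows of NOVA1 averaged 0.402 ± 0.161, with no cell above 1. The window of LRFN5, another synaptic adhesion gene, averaged 0.467 ± 0.621, that of FLRT2 0.495 ± 0.316 and that of NRXN3 0.613 ± 0.219. NRXN3, a very long gene, was given only the window from 79000001 to 80000000. The windows beside it averaged 1.34 ± 0.783 (78000001 to 79000000, above 1 in 19 cells) and 0.540 ± 0.257 (80000001 to 81000000). Whether the gene reaches into them was not read from an annotation. The large SD of LRFN5 came with a value of 3.399 in cell 22; without that cell it averaged 0.350 ± 0.172.

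Windows with regulators of embryonic development were mostly low too. Of 4, 3 were at or below 1 in at least 21 cells and 0 were above it in as many. The shares over all 87 windows of the chromosome were 41.4% below and 21.8% above. OTX2, a factor of head and eye development, was in a window at 0.532 ± 0.251 and NKX2-1 with PAX9, factors of lung, thyroid and tooth, in windows at 0.730 ± 0.564. The window of BMP4, a secreted growth factor, averaged 0.756 ± 0.279, and that of FOXA1, a pioneer factor of endoderm, 0.793 ± 0.374.

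Windows with broadly expressed genes were more often above the mean than below it. Of 8, 4 were above 1 in at least 21 cells and 1 was at or below it. The shares over all 87 windows of the chromosome were 21.8% above and 41.4% below. HNRNPC, SUPT16H and CHD8, which act on pre-mRNA and chromatin, lie in a window that also holds the eosinophil ribonuclease genes RNASE2 and RNASE3; without it the count was 3 of 7. It had a lowest cell of 0.832, a median of 1.73 and a highest of 4.91, for 1.84 ± 0.740, above 1 in 25 cells. The window of the proteasome activator genes PSME1 and PSME2 averaged 1.96 ± 0.961 (23 cells), that of the transcription factor YY1 1.67 ± 0.710 (24 cells) and that of the chaperone HSP90AA1 1.58 ± 0.591 (24 cells). The window of the kinase gene AKT1 followed at 1.15 ± 0.498 and HIF1A, the oxygen-regulated factor, at 1.01 ± 0.336. GALC, a lysosomal enzyme gene in 14q31, was low at 0.713 ± 0.317, above 1 in 5 cells. The window of APEX1, a DNA repair gene, averaged 1.83 ± 2.44 with a median of 1.05, and includes the bin that stood apart in cell 7.

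Windows grouped here under blood and immune genes lay on both sides. Of 8, 4 were above 1 in at least 21 cells and 1 at or below it. The 4 were those of NFKBIA, FOS, TRAF3 and ZFP36L1. These genes of signalling, early response and mRNA decay are not limited to blood and immune cells. The window of NFKBIA had cells from 0.171 over a median of 1.96 to 5.33 (cell 10), and a mean of 2.01 ± 1.00. Without cell 10 it was 1.88 ± 0.752, and the window of DAD1 and CEBPE was then higher at 1.94 ± 0.552. FOS was in a window at 1.84 ± 0.775, TRAF3, an adaptor of TNF receptor signalling, at 1.82 ± 0.857 and ZFP36L1, which promotes mRNA decay, at 1.48 ± 0.727. Counted apart from these 8, the window of CEBPE, a granulocyte transcription factor, which also holds DAD1 and the cardiac myosin genes MYH6 and MYH7, averaged 1.97 ± 0.561. The lymphoid loci were lower: the T cell receptor alpha and delta window was at 1.23 ± 0.648 (above 1 in 17 cells), the immunoglobulin heavy chain windows at 1.21 ± 0.438 (16 cells), TCL1A at 0.859 ± 0.291 and BCL11B, a T cell factor, at 0.713 ± 0.305, above 1 in 4 cells. The imprinted DLK1 and MEG3 window averaged 0.884 ± 0.356 and the SERPINA windows 0.834 ± 0.230. Of all 87 windows of the chromosome, 21.8% were above 1 in at least 21 cells and 41.4% below, and the landmarks and their grouping were chosen with results of these data known.

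Gene number was set beside the signal by gene order alone. RefSeq lists 605 protein-coding genes on chromosome 14; those between 17 landmark genes were counted in the order of that table, which follows another build (GRCh38.p14), and divided by the whole megabases between the landmarks. The stretch from NOVA1 to PRKD1 held 1 coding gene between them, or 0.25 per Mb, and had a relative ratio of 0.445 ± 0.194. From NRXN3 to FLRT2 there were 7 genes (1.00 per Mb) and a ratio of 0.548 ± 0.163, and from FOXA1 to MDGA2 19 (2.11 per Mb) and 0.528 ± 0.287. From APEX1 to PSME1 there were 86 (21.5 per Mb) and 1.77 ± 0.770, from ZFP36L1 to FOS 70 (11.7 per Mb) and 1.35 ± 0.346, and from YY1 to AKT1 47 (9.40 per Mb) and 1.39 ± 0.435. From PSME1 to NOVA1, which spans the limit at 25000000, there were 33 (16.5 per Mb) and 1.01 ± 0.382. From NFKBIA to FOXA1 there were only 9 (3 per Mb), yet the ratio was 1.07 ± 0.369. Over the 16 stretches, Spearman's correlation of gene number per Mb with the ratio was 0.732 and Pearson's 0.792. In these values a stretch includes the windows of the landmarks at both ends, a choice made after the first result was seen, because genes next to PSME1 lie in its own window. As first computed, with the end windows left out, the correlations were lower, at 0.694 and 0.587. The stretch from PSME1 to NOVA1 then stood at 0.539 ± 0.245 in place of 1.01, and that from NFKBIA to FOXA1 at 0.730 ± 0.564 in place of 1.07. The 17 landmark genes were picked from 27 after the profile was seen. The correlations are a description across stretches: neighbouring stretches share a landmark window, and the base composition and GATC density of the bins were not examined.

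**Figure D5:**
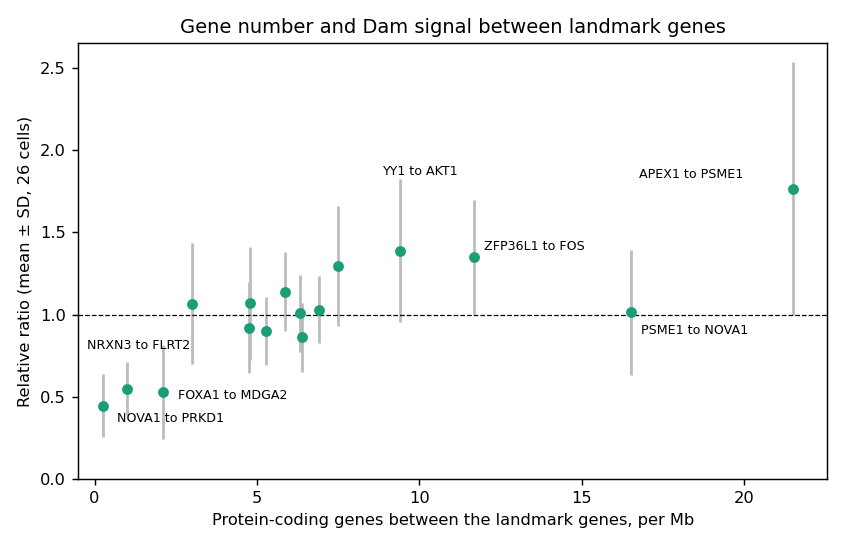
Protein-coding genes per Mb between landmark genes of chromosome 14 (by gene order in RefSeq) against the relative ratio of the windows they span, as mean ± SD of 26 cells; labels name the landmark genes at both ends of a stretch, whose windows are included. The 3 stretches with the fewest genes per Mb lie lowest, between 0.445 and 0.548.

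Compared with the other long acrocentric chromosomes, chromosome 14 was higher than 13 and, by less, lower than 15 in most cells. Chromosome 15 entered with 509 used bins and 49 windows, against 877 and 87 on 14 and 956 and 96 on 13. Its values thus describe fewer bins. Its level over the other autosomes exceeded that of chromosome 13 (0.737 ± 0.105) in 24 of 26 cells and that of chromosome 15 (1.06 ± 0.159, over 509 used bins) in 6. Windows above the cell mean in at least 21 cells made up 21.8% of chromosome 14, 7.29% of 13 and 22.4% of 15. The SD of window means along the chromosome was 0.505 on 14, 0.363 on 13 and 0.499 on 15.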

How the data were processed

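Dam-only DamID reads of 26 single KBM7 cells were processed by the submitters with cutadapt and Bowtie2 2.1.0 on hg19, per the submitters' processing notes. The authors deposited, per bin of 100 kb and cell, a linear ratio of observed over expected signal. The making of the expectation is not described in the labels or the file header. Each value was a whole multiple of a step shared by the cells, so counts and relative expectations were recovered (largest distance from a whole number 2.42e-13), and the recovery was tested on simulated data, where 99.99% of 26288 bins came back exactly. The largest error of a band of chromosome 14 in the simulated data was 5.10%, over 9 bands. Ratios were divided by each cell's mean over used bins and averaged over bands, windows of 1 Mb with at least 7 used bins to be ranked, and landmark windows. Band edges and landmark positions are whole megabases from general knowledge of hg19. A bin was positive at a ratio of 1 or more.

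The members, lists and bands were chosen with earlier results of these data known. The named regions were all bands, the 10 highest and 10 lowest windows and bins (bins with an expectation of at least 0.5 times the median), the 5 longest runs of each kind and all landmark windows, except 4 that are not reported here and enter no count or stretch. Inner stretches, steps, landmark roles, the gene stretches and the omission of cell 10 were chosen after the values were seen. No test was made, because the cells are of 1 clone and 1 condition. Values were computed in Python 3.11.15 with pandas 2.3.3 and numpy 2.4.6, correlations and intervals with scipy 1.17.1, and figures with matplotlib 3.10.9.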

Additional observations from a re-analysis of the deposited data

How the results depend on the processing

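Of 114 alternative values, 8 moved and 0 reversed. A level moved if it changed by more than the spread between cells, and a count if it changed by more than 1.5 times. Of the 8, 2 were values of the correlation of 14q11 and 14q32. That correlation is not a count and has no spread between cells, so neither limit describes it. The 9 band levels and the level of the chromosome, between 0.950 and 1.00, were among those that did not move. With band edges moved inward by 1 Mb, however, 14q13 went from 1.03 to 1.30, where 14q24 stood at 1.35. Under the same setting 14q21 went from 0.640 to 0.485. The spreads between cells were 0.458 and 0.225, so the place of 14q13 near the genome mean depends on its edges. The contrast of high over desert bands stayed between 0.97 and 1.29 on the log2 scale, with the lowest value when 14q13 was added to the deserts and the highest with band edges moved inward by 1 Mb. The count of bins positive in at least 80% of cells was 167 with positive set at 0.5, 5 at 2 and 81 without the 6 cells of lowest coverage, against 48. The count positive in at most 20% was 67 at 0.5, 664 at 2 and 183 with cells thinned to 20000 counts, against 292. For both counts, the share over all used bins was taken at the main setting only. The Pearson correlation of 14q11 and 14q32, 0.575 in the main setting, was 0.328 without the 6 cells of lowest coverage. Without cell 10, an omission chosen after the data were seen, it was 0.268. It was 0.480 with band edges moved inward by 1 Mb, 0.628 without cell 22 and 0.775 with summed counts over summed expectation. The correlation of gene number with the ratio was 0.694 (Spearman) and 0.587 (Pearson) under the definition of the stretches that was used first, against 0.732 and 0.792. Single bins are limited by depth, at a median of 1.73 counts per bin and cell. No paired analysis was possible because the cells form 1 group, with no second group to pair them with; bands and windows were compared within each cell.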
